A study of Rattus norvegicus with 22 samples.

Results

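The miR-181 family was followed here as every deposited miRNA name that reads miR-181 with a letter from a to d, whatever its copy number or arm, which gave 10 of the 468 names. The most abundant were rno-miR-181a and rno-miR-181a-5p, at means of 3279 and 3247 RPM (reads per 1000000 miRNA reads) over 22 libraries, and the species prefix is left off from here on. The tissue was labelled hippocampus, with RNA taken from its CA1 region per the labels' protocols, and the animals were male rats of the outbred Long Evans strain. The 11 CPF libraries came from rats injected under the skin with 10 mg/kg of chlorpyrifos (CPF) daily for 21 days. Chlorpyrifos is an organophosphate insecticide and an inhibitor of acetylcholinesterase. The 11 control libraries came from rats injected with the vehicle, peanut oil, in the same way. All rats were 14 weeks old, and 11 weeks old at the first dose. No animal identifiers are given, so a p-value here reflects library-to-library spread only, which may in part be technical. The labels describe a cohort trained in fear conditioning and a cohort that was not, without saying which library came from which.

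A miRNA is a short RNA cut as one arm, 5p or 3p, from a hairpin precursor, and it directs repression of messenger RNAs that pair with its seed, the bases near its 5′ end. Members of the miR-181 family share their 5p seed and are made from clustered hairpin genes, each cluster giving 2 members. The family is abundant in brain and in lymphoid cells. In mouse T cells miR-181a sets the sensitivity of the antigen receptor, and in cultured rodent hippocampal neurons it lowers the AMPA receptor subunit GluA2.

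The sequences are shown because the 5p members differ in so few bases that the naming of a read matters for every value given here. They are the RefSeq mature sequences of the rat build GRCr8, written 5′ to 3′, with the seed (bases 2 to 8) in capitals, and 7 of the 10 names matched that table. The unmatched names are miR-181a, miR-181b and miR-181b-2-3p.
miR-181a-5p: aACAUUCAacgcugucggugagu
miR-181b-5p: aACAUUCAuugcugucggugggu
miR-181c-5p: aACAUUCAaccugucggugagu
miR-181d-5p: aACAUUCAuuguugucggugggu
miR-181a-1-3p: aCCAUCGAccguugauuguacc
miR-181c-3p: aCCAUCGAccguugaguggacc
miR-181b-1-3p: cUCACUGAacaaugaaugcaa

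The seed of the 5p members was found in 4 of the 693 mature rat names searched, all of them miR-181. Counted from 1 at the 5′ end, miR-181b-5p differed from miR-181a-5p by A9U, C10U and A21G, and miR-181d-5p differed from miR-181b-5p by C12U alone. miR-181c-5p lacked 1 base of miR-181a-5p, the G at position 11, and was otherwise the same in all 22 of its bases. The 3p members fell into separate seeds: miR-181a-1-3p and miR-181c-3p shared one, and miR-181b-1-3p had its own. No deposited name outside the family whose sequence was in the table carried a family seed at bases 2 to 8 (0 names).

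The 6 hairpin genes lay on 3 chromosomes. Mir181a2 and Mir181b2 lay on chromosome 3 and overlapped Nr6a1, the gene of an orphan nuclear receptor, and a long non-coding RNA gene. Mir181a-1 and Mir181b1 lay on chromosome 13 and overlapped another long non-coding RNA gene, and Mir181c and Mir181d lay on chromosome 19 with no overlapping gene in the table. The same mature miR-181a-5p comes from chromosomes 3 and 13, so its reads cannot be assigned to one hairpin.

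Values were deposited in RPM, and the whole reads behind them could be recovered. A library held 47844 to 94980 reads in the CPF group and 53748 to 79350 in the control group, so 1 read equalled 10.53 to 20.9 RPM. The floor used for detection was 3 reads, or 31.59 to 62.7 RPM. No molecular identifiers are mentioned in the labels, so reads may be PCR copies, and floors and intervals cover counting error only. RPM is a share of each library, and in this bulk tissue fewer cells of a type and less of a miRNA per cell cannot be told apart. Neuron-enriched miRNAs were present at a wide range of levels (SD, n = 11 each). miR-9a-5p averaged 50852 ± 7160 RPM in CPF libraries and 52435 ± 7700 RPM in control libraries. miR-128 averaged 7558 ± 1626 RPM in CPF libraries and 7674 ± 1352 RPM in control libraries. miR-124-3p was lower, at 778 ± 178 RPM in CPF libraries and 718 ± 220 RPM in control libraries. miR-143-3p, of smooth muscle, was above each of these, at a mean of 263757 RPM over the 22 libraries. The tissue label itself was not tested.

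CPF replicate 1 stood apart in this family, so results are given with and without it. It had 17688 RPM of miR-181a and 17488 RPM of miR-181a-5p, from 1680 and 1661 reads. In the other 21 libraries the highest values were 4075 RPM for miR-181a and 4130 RPM for miR-181a-5p.

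miR-181a was the leading member of the family in all 22 libraries. Under the name miR-181a, CPF libraries ran from 1941 RPM through a median of 2739 RPM to 17688 RPM, and control libraries from 1458 RPM through a median of 2361 RPM to 4075 RPM. The groups overlapped: 1 CPF library, replicate 1, lay above the highest control library, and 8 of 11 CPF libraries lay above the control median. The CPF libraries averaged 4074 ± 4541 RPM (SD, n = 11) and, without replicate 1, 2713 ± 505 RPM (SD, n = 10), against 2483 ± 711 RPM in control libraries (SD, n = 11). The log2 fold change, CPF over control on log2(RPM + 1), was 0.40 (SE 0.246, 95% interval -0.10 to 0.91, limma adjusted p = 0.788). Without CPF replicate 1 it was 0.16 (SE 0.131, 95% interval -0.11 to 0.43, limma adjusted p = 0.804).

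Under the name miR-181a-5p the picture was much the same. CPF libraries ran from 1895 RPM through a median of 2597 RPM to 17488 RPM, and control libraries from 1111 RPM through a median of 2538 RPM to 4130 RPM. Only 6 of 11 CPF libraries lay above the control median. The means were 4023 ± 4499 RPM in CPF libraries (SD, n = 11), or 2677 ± 574 RPM without replicate 1 (SD, n = 10), and 2472 ± 809.8 RPM in control libraries (SD, n = 11). The log2 fold change was 0.41 with all libraries (SE 0.261, 95% interval -0.12 to 0.94, limma adjusted p = 0.788) and 0.16 without CPF replicate 1 (SE 0.157, 95% interval -0.16 to 0.48, limma adjusted p = 0.834).

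**Figure D1:**
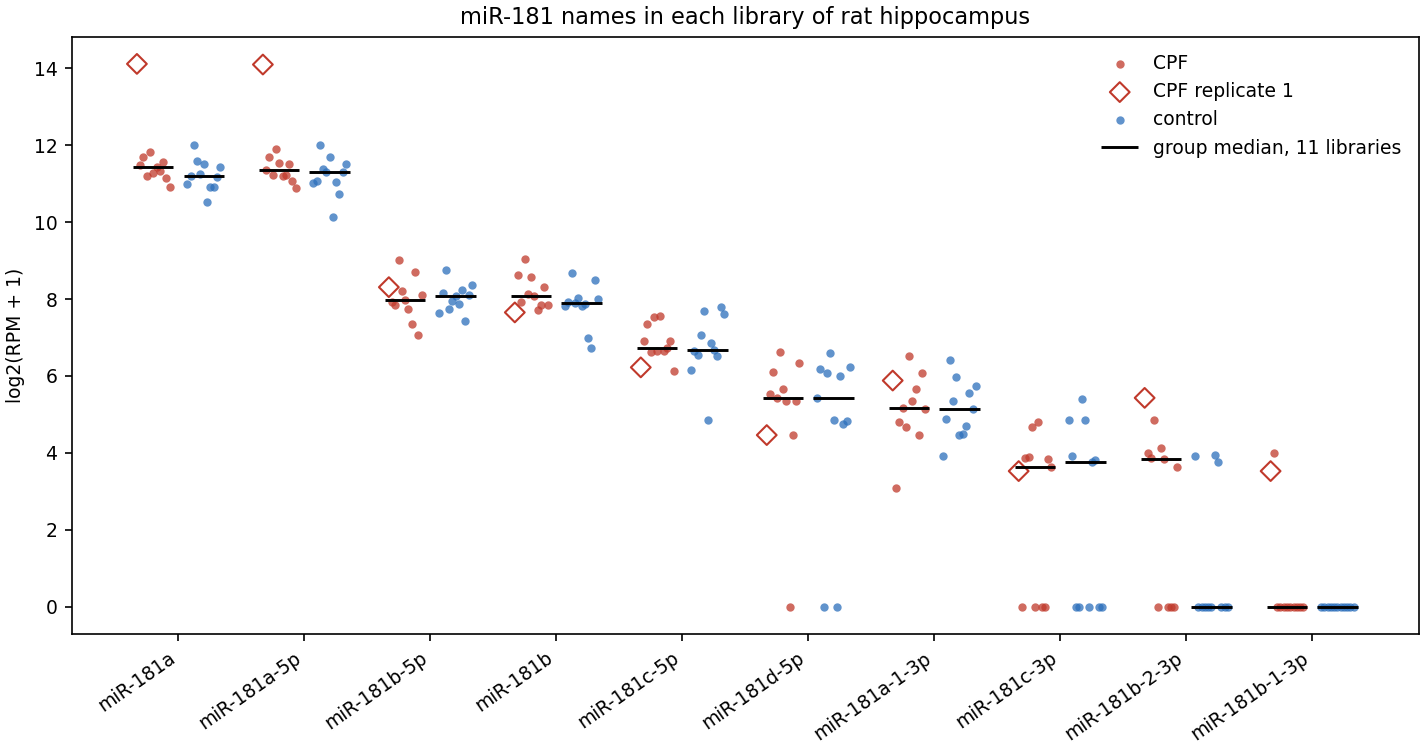
log2(RPM + 1) of the 10 miR-181 names, a point per library, with CPF libraries (red) left of control libraries (blue) for each name, CPF replicate 1 as an open diamond and bars at the group medians. The diamonds of miR-181a (17688 RPM) and miR-181a-5p (17488 RPM) stand above all other libraries, while for the names from miR-181b-5p to miR-181c-3p the groups overlap.

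The names miR-181a and miR-181a-5p had near-equal read counts, and whether they drew on the same reads was not tested. The share of miR-181a among the reads of both names was 45.6 to 56.7% over the 22 libraries (median 50.1%), and its exact 95% binomial interval held 50% in 22 of 22. In CPF replicate 1 the share was 50.3% of 3341 reads. For miR-181b and miR-181b-5p the share of the plain name ran from 29.4 to 70.6% (median 50.3%), and the interval held 50% in 20 of 22 libraries. The exceptions were CPF replicate 10 at 70.6% and control replicate 8 at 29.4%, each of 34 reads. How the authors counted reads that match several entries is not given in the sources used here, so each pair is read here as an uncertain split of one molecule and not as separate measurements of RNA. With names with and without an arm summed, the log2 fold change of miR-181a was 0.41 over all libraries (SE 0.249, limma adjusted p = 0.805).

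**Figure D2:**
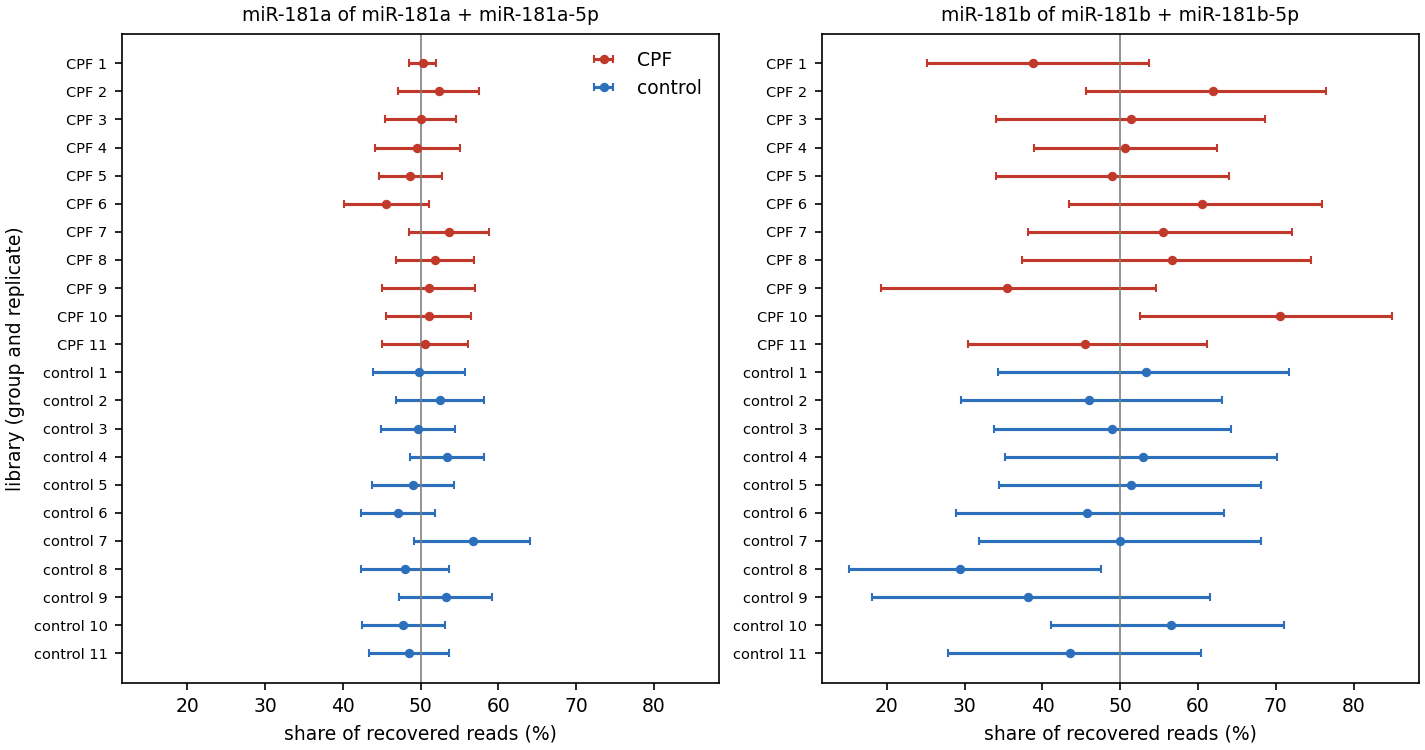
Share of reads under the plain name, in percent of the reads under both names, for miR-181a (left) and miR-181b (right), with exact 95% binomial intervals and CPF libraries above control libraries. All 22 intervals for miR-181a and 20 of 22 for miR-181b cover the line at 50%.

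miR-181b, which shares the miR-181 seed and comes from the same clusters as miR-181a, was lower than it in every library. Under the name miR-181b, CPF libraries ran from 200.04 RPM through a median of 267 RPM to 528 RPM, and control libraries from 104.4 RPM through a median of 237 RPM to 409 RPM. The groups overlapped: 1 CPF library lay above the highest control library, and control replicates 8 (126.02 RPM) and 9 (104.4 RPM) lay below the lowest CPF library. The CPF mean was 298 ± 99.9 RPM and the control mean 243 ± 86.5 RPM (SD, n = 11 each), with a log2 fold change of 0.32 (SE 0.206, 95% interval -0.10 to 0.75, limma adjusted p = 0.788). Without CPF replicate 1 it was 0.37 (SE 0.209, 95% interval -0.05 to 0.80, limma adjusted p = 0.670).

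The name miR-181b-5p is the other part of that uncertain split, so neither value is read alone. With names with and without an arm summed, the log2 fold change was 0.17 (SE 0.159, limma adjusted p = 0.892). Under the name miR-181b-5p, CPF libraries ran from 132.5 RPM through a median of 249 RPM to 514.5 RPM. Control libraries ran from 169.7 RPM through a median of 267 RPM to 428 RPM. The log2 fold change under this name was -0.01 (SE 0.196, 95% interval -0.41 to 0.40, limma adjusted p = 0.985) with all libraries and -0.03 without CPF replicate 1 (95% interval -0.45 to 0.38, limma adjusted p = 0.978).

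The members of the chromosome 19 cluster were lower. miR-181c-5p ran from 68.9 RPM through 104.5 RPM to 187 RPM in CPF libraries and from 28.1 RPM through 100.8 RPM to 219.5 RPM in control libraries (lowest, median and highest). No CPF library lay above the highest control library. Its log2 fold change was 0.07 (SE 0.286, 95% interval -0.51 to 0.66, limma adjusted p = 0.972), and without CPF replicate 1 it was 0.14 (95% interval -0.46 to 0.74, limma adjusted p = 0.938).

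miR-181d-5p, its neighbour in the cluster, ran from 0 RPM through 41.7 RPM to 97.9 RPM in CPF libraries and from 0 RPM through 42.2 RPM to 96.2 RPM in control libraries. It rested on a mean of 3.5 reads in CPF libraries and 3.3 reads in control libraries, and was at 0 in 1 CPF and 2 control libraries. The means were 45.84 ± 27.96 RPM in CPF libraries and 45.01 ± 31.57 RPM in control libraries (SD, n = 11 each). Its log2 fold change of 0.39 had an SE of 0.816 and a 95% interval from -1.28 to 2.06 (limma adjusted p = 0.954), and without CPF replicate 1 the value was 0.45 (95% interval -1.26 to 2.16, limma adjusted p = 0.938). The value was 0.11 with a pseudocount of 14 and 0.02 with DESeq2. A difference was not detectable at this depth.

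The 3p arms, which leave the hairpin opposite the 5p arms, were together about 1% of the family in both groups. miR-181a-1-3p ran from 7.51 RPM through 34.8 RPM to 91.4 RPM in CPF libraries and from 14.1 RPM through 34.3 RPM to 83.7 RPM in control libraries. Its log2 fold change was 0.02 (SE 0.405, 95% interval -0.81 to 0.85, limma adjusted p = 0.983) and without CPF replicate 1 -0.05 (95% interval -0.94 to 0.83, limma adjusted p = 0.978). The gene Mir3570 overlaps Mir181a-1, and the deposited names miR-3570 and miR-181a-1-3p had equal RPM in 22 of 22 libraries. Their sum was a whole number of reads in 22 of 22 libraries (within 0.02 reads), while miR-181a-1-3p alone was not in 11. These values are therefore a shared count under both names.

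miR-181c-3p was found in 7 CPF and 6 control libraries, at up to 26.7 RPM in the CPF libraries and up to 41.3 RPM in the control libraries. Both groups averaged under 1 read (0.82 reads in CPF libraries and 0.91 reads in control libraries), so no fold is read from it; the fit gave an adjusted p of 0.974 in limma. miR-181b-2-3p and miR-181b-1-3p did not pass the filter of 10 RPM in at least 11 libraries. miR-181b-2-3p was found in 7 CPF and 3 control libraries, at up to 42.1 RPM in CPF libraries and up to 14.4 RPM in control libraries, and 1 CPF library alone reached the floor of 3 reads. That library was CPF replicate 1, with 4 reads. miR-181b-1-3p was found in 2 CPF and 0 control libraries, at up to 15.01 RPM, below the floor.

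No name of the family passed the test. Of the 8 names tested, 0 rose and 0 fell at a limma adjusted p under 0.05, and 0 had an unadjusted p under 0.05. Over all 273 names tested 2 were called, which is 0.733%, and 18 had an unadjusted p under 0.05. edgeR with TMM on the recovered reads tested 4 of the family names and called 0, though miR-181a (p = 0.0252, edgeR adjusted p = 0.321) and miR-181a-5p (p = 0.0314, edgeR adjusted p = 0.366) had unadjusted p-values under 0.05. These names are read as an uncertain split, so the p-values are not separate results. edgeR called 2.86% of its names. Its log2 fold changes, 0.75 for miR-181a and 0.74 for miR-181a-5p, were 0.14 and 0.12 without CPF replicate 1. DESeq2 called 0 of 10 family names, with 0 at an unadjusted p under 0.05, and 1.2% of all its names. It replaced the reads of CPF replicate 1 with an imputed value, 245 in place of 1680 for miR-181a and 243 in place of 1661 for miR-181a-5p, and its log2 fold changes of 0.13 and 0.12 rest on those.

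**Figure D3:**
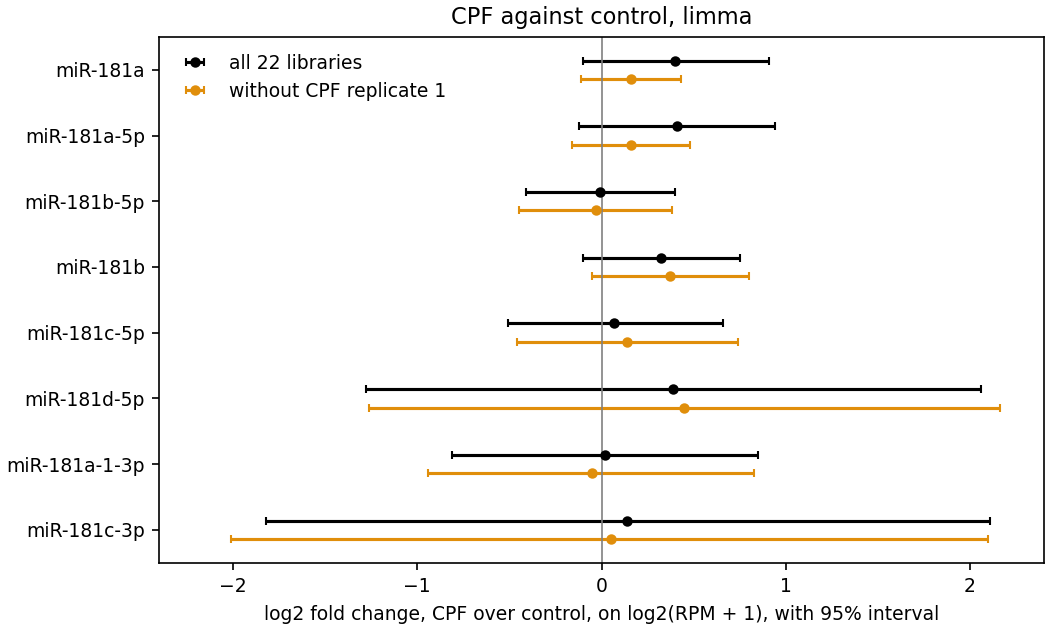
Log2 fold change of CPF over control on log2(RPM + 1) for the 8 tested miR-181 names, with 95% intervals from limma, for all 22 libraries (black) and without CPF replicate 1 (orange). Every interval spans 0, and the values for miR-181a and miR-181a-5p move from 0.40 and 0.41 to 0.16 and 0.16 when CPF replicate 1 is left out.

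The 8 tested names had a median log2 fold change of 0.23, with 7 above 0, beside a median of 0.02 and 53.1% above 0 for all 273 names. Without CPF replicate 1 the median was 0.15 with 6 above 0, beside 0.01 and 52.4% for all names. The 8 names include pairs that are not separate measurements, and the filter chose which names were tested. Summed, the family made up 0.890 ± 0.902% of RPM in CPF libraries (SD, n = 11), or 0.620 ± 0.110% without replicate 1 (SD, n = 10), and 0.569 ± 0.162% in control libraries (SD, n = 11).

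Within the family the order of levels was alike in nearly all libraries. miR-181a exceeded miR-181b in 22 of 22 libraries, miR-181b exceeded miR-181c-5p in 22 of 22, and miR-181c-5p exceeded miR-181d-5p in 20 of 22. miR-181d-5p and miR-181a-1-3p did not separate, with miR-181d-5p higher in 12 libraries and lower in 8. The spread grew as the level fell: over the 21 libraries without CPF replicate 1 the coefficient of variation was 23.8% for miR-181a, 34.1% for miR-181b-5p, 40.7% for miR-181c-5p and 62.9% for miR-181d-5p. At means of 8.7 to 9.0 reads for miR-181c-5p and 3.3 to 3.6 reads for miR-181d-5p, counting error alone is large.

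The balance between miR-181a and miR-181b was similar in both groups outside CPF replicate 1. The ratio of miR-181a to miR-181b, each summed over its names, was 9.92 ± 2.91 in the other CPF libraries (SD, n = 10) and 9.90 ± 2.30 in control libraries (SD, n = 11). In CPF replicate 1 it was 68.2, against a highest value of 14.06 elsewhere. miR-181a made up 97.96% of the family there and 78.9 to 91.2% in the other 21 libraries.

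The other 5p members did not share the height of miR-181a in CPF replicate 1, while some 3p names ranked high there on few reads. Without miR-181a the family summed to 732 RPM in CPF replicate 1, rank 13 of the 22 libraries. Its miR-181b, 200.04 RPM, ranked 20 of 22, its miR-181c-5p, 73.7 RPM, ranked 19, and its miR-181d-5p, 21.06 RPM, ranked 18, while its miR-181b-5p, 316 RPM, ranked 5. The 3p arm of the chromosome 13 hairpin, miR-181a-1-3p, had 57.9 RPM from 5.5 reads, shared with miR-3570, against a median of 34.5 RPM in the other libraries. miR-181b-2-3p, at 42.1 RPM from 4 reads, ranked 1 of 22, with a highest value of 27.8 RPM elsewhere. miR-181b-1-3p, found in 2 CPF and 0 control libraries, ranked 2 at 10.53 RPM from 1 read. miR-181c-3p, also at 10.53 RPM from 1 read, ranked 13. Per 100 reads of miR-181a, miR-181a-1-3p stood at 0.165, at the low end of the 0.138 to 1.67 seen in the others.

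A name outside the family was raised further in the same library. miR-153-3p, a miRNA enriched in neurons, stood at 14435 RPM from 1371 reads in CPF replicate 1, against 282 to 693 RPM in the other 21 libraries. That is 32.0 times their median, where miR-181a was at 7.10 times and miR-181a-5p at 6.89 times. Its RefSeq sequence, from a hairpin on chromosome 6, is shown with the seed in capitals because it shares no seed with the family.
miR-153-3p: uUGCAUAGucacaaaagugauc

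Its other arm was not raised: miR-153-5p had 31.6 RPM from 3 reads in CPF replicate 1, against a median of 54.9 RPM elsewhere. Among the names with a median of at least 200 RPM, these 3 names alone exceeded 5 times the median of the other libraries in CPF replicate 1, and 1 of the other 21 libraries had any name so far above (CPF replicate 9, miR-34c-5p at 5.57 times). Together the 3 names were 4.96% of RPM in CPF replicate 1 and 0.326 to 0.852% in the others. The next names by that ratio were low: miR-369-3p, miR-503-3p, miR-218a-2-3p, miR-34b-3p, miR-326-3p, miR-380-3p and miR-667-3p stood at 2.81 to 5.50 times their medians on 2 to 8 reads.

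**Figure D4:**
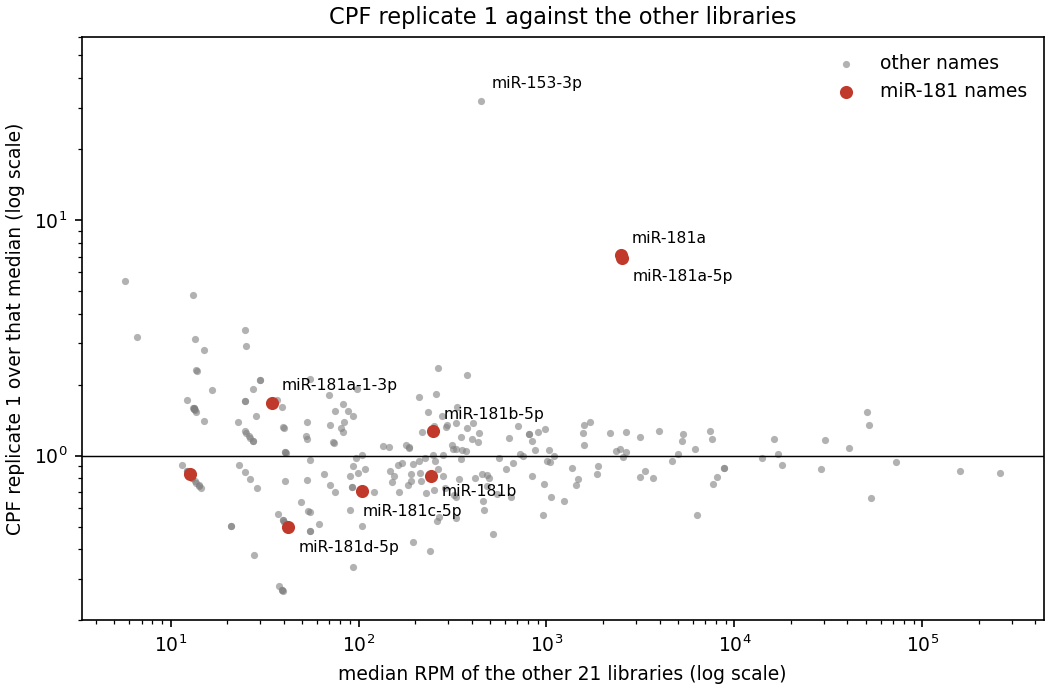
RPM in CPF replicate 1 divided by the median of the other 21 libraries, against that median, both on log scales, for the 252 tested names above 0 in both, with miR-181 names in red. miR-153-3p at 32.0 and miR-181a and miR-181a-5p at 7.10 and 6.89 stand apart from the other abundant names.

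Over the 270 remaining tested names its rank correlation with the median of the other libraries was 0.960, rank 10 of 22, within a range of 0.934 to 0.968. It was the deepest library, with 94980 reads. Blood and immune miRNAs summed to 516 RPM there, rank 21 of 22, against 501 to 981 RPM in the other libraries. The leading name of that list, miR-146b-5p, had 274 RPM, the lowest of the 22 libraries, and without that name the list summed to 242 RPM, rank 15. miR-142-5p, found in blood-forming cells, had 63.2 RPM from 6 reads, 1.21 times the median of the other libraries, and miR-150-5p of lymphocytes had 42.1 RPM from 4 reads, 1.48 times. miR-142-3p had 21.1 RPM from 2 reads, 0.851 times the median, and miR-146a-5p had 115.8 RPM from 11 reads, 0.772 times. miR-223-3p of myeloid cells and miR-451 of red blood cells were at 0, as in most other libraries. Of the other 21 libraries, miR-223-3p and miR-451-3p were each at 0 in 20, and miR-451-5p in 14. miR-144-3p was at 0 in CPF replicate 1 and in 14 of the others. miR-144-5p was at 0 in CPF replicate 1 and in 5 of the others, whose median was 14.2 RPM. The neuronal list, which holds miR-153-3p, summed to 78380 RPM, rank 15. Without miR-153-3p it summed to 63945 RPM in CPF replicate 1, rank 22, against 66100.3 to 90622 RPM in the other libraries. The glial and vessel list summed to 310539 RPM, rank 21. Most of that was miR-143-3p, whose 218751 RPM was the lowest value of the 22 libraries. Other members of the list went both ways. miR-338-3p, of oligodendrocytes, ranked 2 at 77616 RPM, and miR-219-5p, 536.96 RPM, lay above the highest of the other libraries, 519.58 RPM. miR-145-5p stood at 0.835 times the median of the other libraries and miR-21-3p at 0.691 times. The largest part of the neuronal list in CPF replicate 1 was miR-9a-5p, whose 34986 RPM lay below the lowest of the other libraries, 38074 RPM. Other neuronal names went both ways against the median of the other libraries. miR-125a-5p stood at 1.26 times, miR-129-2-3p at 1.25 times and miR-138-5p at 1.05 times, while miR-128 stood at 0.756 times and miR-218a-5p at 0.644 times. The choroid plexus and ependyma list summed to 1232 RPM, rank 4. What set miR-181a and miR-153-3p apart in this library was not tested.

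Library codes begin with the digit 3 or 6 in CPF libraries and 1 or 4 in control libraries, a digit whose meaning no label gives. Within digits 3 and 1, miR-181a averaged 5382 ± 6048 RPM in CPF libraries (SD, n = 6), or 2920.3 ± 537 RPM without replicate 1 (SD, n = 5), and 2799 ± 805 RPM in control libraries (SD, n = 5). Within digits 6 and 4 it averaged 2505 ± 423 RPM in CPF libraries (SD, n = 5) and 2220 ± 556 RPM in control libraries (SD, n = 6). The log2 fold changes of miR-181a were 0.52 for 3 against 1 (limma adjusted p = 0.955), 0.09 for the same without CPF replicate 1 (limma adjusted p = 0.942) and 0.20 for 6 against 4 (limma adjusted p = 0.763). Each of these fits called 0 of the 8 family names, and 0.366% of all names in 3 against 1 and in 6 against 4.

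The names called in the whole table were miR-132-3p and miR-212-5p, products of a shared hairpin cluster that is induced by neuronal activity. miR-132-3p averaged 1292 ± 362 RPM in CPF libraries and 698 ± 159 RPM in control libraries (SD, n = 11 each), a log2 fold change of 0.87 (SE 0.154, limma adjusted p = 0.00131). miR-212-5p averaged 1101 ± 129.01 RPM in CPF libraries and 819.6 ± 106 RPM in control libraries (SD, n = 11 each), a log2 fold change of 0.43 (SE 0.0864, limma adjusted p = 0.00456). Without CPF replicate 1 miR-409b was called as well. That fit called 1.1% of the names and 0 of the family.

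Lists of miRNAs that could move with the family gave these counts, by the same test. Over all names, 2 of 273 (0.733%) were called. Of the activity-induced list 2 of 5 tested names rose and 0 fell, with a median log2 fold change of 0.56. These are the same miR-132-3p and miR-212-5p, and the lists were chosen with earlier results known, so the count adds nothing to those calls. Of 27 neuronal and synaptic names 0 rose and 0 fell (median 0.01), and of 6 immune and blood names 0 rose and 0 fell (median -0.09). Of 11 glial and vessel names 0 rose and 0 fell (median 0.02). Of 7 choroid plexus and ependyma names 0 rose and 0 fell, with a median of 1.61, and their sum ran from 635 to 8005 RPM in CPF libraries and from 580.0 to 1097 RPM in control libraries. The highest members of these lists included miR-146b-5p, of immune cells, at 446 ± 102 RPM in CPF libraries and 441 ± 75.4 RPM in control libraries, and miR-146a-5p at 144.9 ± 44.0 RPM in CPF libraries and 135 ± 55.0 RPM in control libraries (SD, n = 11 each). miR-143-3p, of smooth muscle, averaged 267848 ± 26205 RPM in CPF libraries and 259666 ± 17535 RPM in control libraries, and miR-338-3p, of oligodendrocytes, 50330.0 ± 13800.3 RPM in CPF libraries and 55889 ± 11908 RPM in control libraries (SD, n = 11 each). miR-1298 averaged 795 ± 1243 RPM in CPF libraries and 133 ± 77.6 RPM in control libraries, and miR-34c-5p 579 ± 471 RPM in CPF libraries and 332 ± 105 RPM in control libraries (SD, n = 11 each).

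Profiles across libraries were compared with that of miR-181a-5p by Spearman's rho as a description, over names that share library, depth and a fixed total. miR-181a itself had a rho of 0.92 over 22 libraries and 0.90 over the 21 without CPF replicate 1. The other members had lower values, with miR-181b-5p at 0.43 over 22 libraries and 0.37 over 21, and miR-181b at 0.32 over 22 and 0.46 over 21. miR-181c-5p had 0.15 over 22 and 0.27 over 21, and miR-181d-5p 0.06 over 22 and 0.16 over 21. Of the 3p names, miR-181a-1-3p had 0.20 over 22 and 0.12 over 21, and miR-181c-3p -0.14 over 22 and -0.12 over 21. Of 265 names outside the family the highest over 22 libraries were miR-132-5p (0.60), miR-1843-5p (0.54), miR-34b-3p (0.53), miR-320-3p (0.51) and miR-30d-3p (0.50). Over 21 libraries they were miR-132-5p (0.70), miR-1843-5p (0.67), miR-30d-3p (0.61), miR-320-3p (0.57) and let-7d-5p (0.52). The median of all 265 was 0.01 over the 22 libraries. miR-132-5p averaged 19.3 RPM and miR-34b-3p 11.4 RPM, both below the floor.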

How the data were processed

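Per the labels' protocols, TruSeq small RNA libraries were run on a HiScanSQ sequencer. Tools listed in the submitters' processing notes, without roles, are Bowtie, Partek 6.6, CASAVA 1.8.2 and cutadapt 1.2. They list rn4 as the genome build. The deposited values are RPM per miRNA name, computed by the authors, per the file headers. The handling of reads that match several entries is not given in the sources used here.

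A full file has 484 rows and 468 names, and 29 rows of 13 names were summed. The file of control replicate 2 has 448 rows, and its missing 36 rows (967 RPM) were not set to 0. All 10 family names are in it. In a library, 95.52 to 98.44% of low values were whole multiples of a step and 91.79 to 97.67% were whole reads of 2 steps (within 0.02 RPM, values up to 100 reads). The 273 names that reached 10 RPM in 11 or more libraries were fitted on the log2(RPM + 1) scale with limma 3.58.1 (R 4.3.3, mean-variance trend), two-sided, with Benjamini-Hochberg adjustment over all of them and a threshold of 0.05. With 1 read worth more than 10 RPM, libraries at 0 weigh heavily on this scale, so fold changes of low names can exceed the ratio of their means or differ from it in sign. edgeR 4.0.16 and DESeq2 1.42.0 were run on the recovered reads as alternatives, and the fits were tested on simulated data. A first such test, in which very abundant names were changed too, gave many false limma calls. Only names of at most 1% of reads were changed after that, so large changes of abundant names are not covered.

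Named are every family name, the 5 names with profiles nearest to miR-181a-5p with and without CPF replicate 1, the 10 with the highest ratio in CPF replicate 1, the 2 highest of each list, names past the threshold and names sharing a family seed. The members and lists were chosen with earlier results of these data known. Replicate numbers did not pair the libraries. Sequences and chromosomes are from RefSeq tables of GRCr8, another build than rn4, so no coordinates are given.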

Additional observations from a re-analysis of the deposited data

Results flagged for a closer look

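Among libraries that share a first code digit, groups of 5 or 6, the 8 tested names were examined for a library far from the rest (32 groups). Chance marks about 1 in 20 groups. Of the 4 marked here, both in CPF replicate 1 concern a library already known to stand apart and names that are not separate measurements, so the number marked is not read against chance. For miR-181a in digit 3, CPF replicate 1 (17688 RPM) lay above the next library (3598 RPM) by 0.918 of the group's range, and for miR-181a-5p (17488 RPM, next 3794 RPM) by 0.906. For miR-181b-5p in digit 3, CPF replicate 4 (514.5 RPM, next 316 RPM) lay apart by 0.697 of the range. For miR-181b in digit 1, control replicate 3 (409 RPM, next 261 RPM) lay apart by 0.805 of the range. What set these libraries apart was not tested.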

How the results depend on the processing

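Of 38 alternatives, 22 leaving out a library and 16 others, 0 called a family name, and the lowest unadjusted p of a family name was 0.0252. Depth limits the lower members, at 0.82 to 9.0 mean reads. The log2 fold changes of miR-181a (0.09 to 0.75), miR-181a-5p (0.11 to 0.74) and miR-181b (0.21 to 0.41) kept their sign. The count of all miRNAs called, 2, was 4 with edgeR (TMM, RLE and TMM without CPF replicate 1), 5 with DESeq2 with or without CPF replicate 1, 1 in each digit pair, and 2 to 3 with a library left out. Same-number libraries correlated between -0.0867 and 0.193, with 2 of 11 over 0.1 and 1 CPF library nearest to its own number. The replicate block called 2 names and 0 of the family, with 0.40 for miR-181a. Signs turned for the other tested family names, and the cause was not tested. Most of their main values lay near 0, but that of miR-181d-5p was 0.39 (SE 0.816). miR-181b-5p was 0.07 (TMM), 0.04 (RLE), 0.05 (DESeq2), 0.17 (3 against 1) and 0.17 (names with and without arm summed). Without CPF replicate 1 it was 0.03 (TMM and DESeq2) and 0.15 (3 against 1). miR-181c-5p was -0.04 with DESeq2, and miR-181d-5p -0.15 in 6 against 4. miR-181a-1-3p was -0.28 in 3 against 1 and -0.45 there without CPF replicate 1. miR-181c-3p was -0.04 with pseudocount 14, -0.23 with DESeq2 with or without CPF replicate 1, -0.18 in 3 against 1 and -0.35 there without CPF replicate 1. With a library left out, the ranges were 0.16 to 0.48 (miR-181a), 0.16 to 0.49 (miR-181a-5p), 0.21 to 0.41 (miR-181b), -0.10 to 0.09 (miR-181b-5p), -0.12 to 0.18 (miR-181c-5p), -0.07 to 0.90 (miR-181d-5p), -0.12 to 0.23 (miR-181a-1-3p) and -0.10 to 0.44 (miR-181c-3p). miR-132-3p (0.73, adjusted p = 0.484, and 0.78, adjusted p = 0.262, without CPF replicate 1) was not called by limma in 3 against 1, nor miR-212-5p (0.27, adjusted p = 0.745) in 6 against 4. 3 against 1 without CPF replicate 1, chosen after seeing the data, called 2 names.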
